A study of Mus musculus with 14 samples.

Results

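Replication-dependent histone genes encode the linker histone H1 and the core histones H2a, H2b, H3 and H4, around which DNA is packed as it is copied. They are mostly intronless, lie in clusters and are transcribed chiefly in S phase. Their mRNAs usually end in a conserved stem-loop in place of a poly(A) tail. Cleavage just after the stem-loop is guided by the stem-loop binding protein Slbp and the U7 small nuclear RNP. Some of these genes can also give longer, polyadenylated transcripts that run past the stem-loop, a form described mainly in cells that leave the cell cycle. The array's gene names beginning with Hist1h, Hist2h, Hist3h or Hist4h picked out 49 of 34836 gene names, read by 57 of the 55681 non-control probes. A probe was kept where all arrays of a group, whichever group, marked it well above background, which held for 52 histone probes of 45 genes and for 30326 probes in all. Of the 52, 47 were so marked on all 14 arrays. The kept set held 5 H1, 16 H2a, 10 H2b, 8 H3 and 13 H4 probes. Of the 57, 41 lie on mouse chromosome 13, 11 on chromosome 3, 3 on chromosome 11 and 2 on chromosome 6.

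The cells were mSCC-38, a mouse line from a chemically induced skin carcinoma of the DMBA/TPA model. They were left untransfected (NT, 4 arrays, no time given), or received a control siRNA (SiC, 3 arrays) or either of the AK144841 siRNAs Si1AK (4 arrays) and Si2AK (3 arrays), by RNAimax and for 72 h. All groups are of this 1 line. Nothing in the labels makes the replicates separate cultures, so the spread behind each p-value is that between samples and may be technical. The level of AK144841 itself was not analysed here. All values below are log2 of the processed signal of a probe minus the 75th percentile of its array. Differences are on that log2 scale, with the moderated SE of limma, and a probe was called at a Benjamini-Hochberg adjusted p below 0.05 over all 30326 kept probes.

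On 12 arrays the median processed signal lay between 23.5 and 58.7 and 52.7% to 60.1% of probes were well above background. SiC replicate 1 (270.9 and 90.5%) and Si2AK replicate 2 (107.5 and 84.9%) stood apart. They are called the arrays of raised signal below. The arrays were on 2 slides of 7, with SiC replicate 1 the only SiC array on slide 1 and Si2AK replicate 3 the only Si2AK array on slide 2. SiC replicate 1 is titled SiC and replicates 2 and 3 are titled NC, while the descriptions of all 3 give a control siRNA. Title, slide and raised signal thus cannot be told apart among the SiC arrays. Of 10 keratinocyte markers, 9 were well above background on all 14 arrays, and Cdh1 was not kept. Against SiC, 4 of the 9 rose in Si2AK and none was called in Si1AK, beside 6.73% and 2.42% of all kept probes called higher. Against NT, 3 rose in Si2AK and 3 fell in Si1AK, where all 9 differences were negative with a median of -0.32. Of all kept probes, 6.72% were called higher in Si2AK and 2.61% lower in Si1AK there. Of 5 kept fibroblast markers, 1 rose in Si2AK against SiC and 2 against NT, beside the same 6.73% and 6.72%. None was called in Si1AK. Not kept either were Lum and Thy1 of fibroblasts, Ptprc and Lyz2 among those of leukocytes, Tek of endothelium, and Dct and Tyrp1 of melanocytes. Of the leukocyte, endothelial and melanocyte markers that were kept, none was called against SiC. Against NT, 1 of each of these lists rose in Si1AK, beside 3.22% of all kept probes called higher. In Si2AK against NT 1 leukocyte marker fell, beside 6.59% of all kept probes called lower. The log2 summed level of the 5 kept fibroblast markers (of 7) ran from -0.35 to -0.14 in NT, -0.02 to 0.59 in SiC, 0.05 to 0.58 in Si1AK and 0.61 to 0.93 in Si2AK. For leukocyte markers (4 of 7 kept) it ran from 3.56 to 3.90, 3.39 to 3.96, 3.74 to 3.92 and 3.37 to 3.5 in the same order. For endothelial markers (4 of 5 kept) it ran from 3.16 to 3.72, 3.02 to 3.24, 2.98 to 3.24 and 3.14 to 3.52. For melanocyte markers (3 of 5 kept) it ran from -1.95 to -1.24, -1.87 to 0.08, -1.28 to -0.43 and -2.07 to -0.82. The part of these markers in the histone results was not tested.

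The stem-loop could be read from the probes themselves, and it divides them. The motif searched was GGNNCTTNNNAGNNCC on the probe's own strand, and it was found in 14 of the 55681 probes (0.0251%), of which 6 were histone probes. A further pair of histone probes held at least 10 bases of the commonest full match, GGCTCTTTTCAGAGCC, at a probe end. Windows of 30 bases follow, with the element in capitals, from probes that end on or just after it, to show how closely H3, H4 and H2b genes share it.
Hist1h3a: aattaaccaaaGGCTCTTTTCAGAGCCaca
Hist1h3i: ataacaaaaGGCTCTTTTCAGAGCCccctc
Hist1h4m: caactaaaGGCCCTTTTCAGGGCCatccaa
Hist2h2bb: acccaaaaGGCTCTTTTCAGAGCCacttta
In a pair of H2a probes the element stands at the 5′ end, so that most of the probe lies after it.
Hist2h2aa2: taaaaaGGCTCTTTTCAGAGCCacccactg
Hist1h2ae: CTTTTCAGAGCCattcacttaattcagtaa
The letters of a polyadenylation signal (AATAAA or ATTAAA, sense strand) were present in 13.7% of all probes. They were in 4 of 18 histone probes downstream of the stem-loop and in 1 of 33 upstream. Such a match describes letters and not a site in use. The letters are in capitals in the following windows from downstream probes of a pair of H2b genes.
Hist2h2bb: gttgtcagtttgAATAAAgacagagaaact
Hist1h2be: gtactgttcattATTAAAgcattcctgatt

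Probes were therefore divided by place. Those with at least 30 bases after the stem-loop, or starting beyond its last base as seen in probes of the same class (base 591 of the transcript for H2a, 487 for H2b, 497 for H3 and 399 for H4), were called downstream. No H1 probe held the element, and H1 probes starting beyond base 1000 of the transcript were called downstream. This gave 18 downstream probes (14 kept), 6 holding the stem-loop (6 kept) and 33 upstream (32 kept). The division was chosen after the values had been seen, so it carries no test of its own, and the counts below describe it. The 4 downstream probes that were not kept were those of Hist1h1d, Hist1h2bq, Hist3h2ba and the distal probe of Hist4h4, and the upstream probe not kept was that of Hist3h2bb-ps.

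In Si1AK against SiC, 8 of 52 histone probes were called (15.4%), 5 higher and 3 lower, beside 3.63% of all kept probes (2.42% higher and 1.21% lower). The 5 that rose were all downstream: Hist2h2aa2, Hist2h3c2, Hist1h2bc, Hist3h2a and Hist1h1c. The 3 that fell were Hist1h1a, Hist1h2ak and Hist1h3a, upstream of or on the stem-loop. The median difference was 0.17 over the 14 downstream probes, -0.37 over the 32 upstream and -0.49 over the 6 holding the stem-loop, beside -0.10 over all kept probes. Without both arrays of raised signal the downstream median was 0.47 and the upstream one -0.51. All 32 upstream probes had a negative difference, while 37.3% of all kept probes had a positive one. The 32 are not separate observations, since 10 of them share at least 80% of bases with another histone probe. Without Si1AK replicate 1, 2 or 3, or without SiC replicate 2, 4 histone probes were called, none of them lower. Within slide 1 or slide 2 alone none was called, and the downstream medians there were 0.14 and 0.49 and the upstream ones -0.17 and -0.46.

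In Si2AK against SiC, 13 of 52 histone probes were called (25.0%), 8 higher and 5 lower, beside 10.8% of all kept probes (6.73% higher and 4.05% lower). The 8 that rose were again downstream: the 5 above with Hist1h2ae, the distal Hist2h2bb probe and the distal Hist1h4i probe. The 5 that fell were Hist1h1a, Hist1h1b, Hist1h2ak, Hist4h4 and Hist1h3a. The medians were 0.99 downstream, -0.54 upstream and -0.41 on the stem-loop, beside -0.05 over all kept probes. Both comparisons share the SiC arrays and so are not independent. In a fit of SiC and Si2AK alone no histone probe was called, while 32 were with array weights. The share of all kept probes called in these fits is not given here. The downstream medians were 0.93 and 0.92 within slides 1 and 2, and the upstream ones -0.24 and -0.65.

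**Figure D1:**
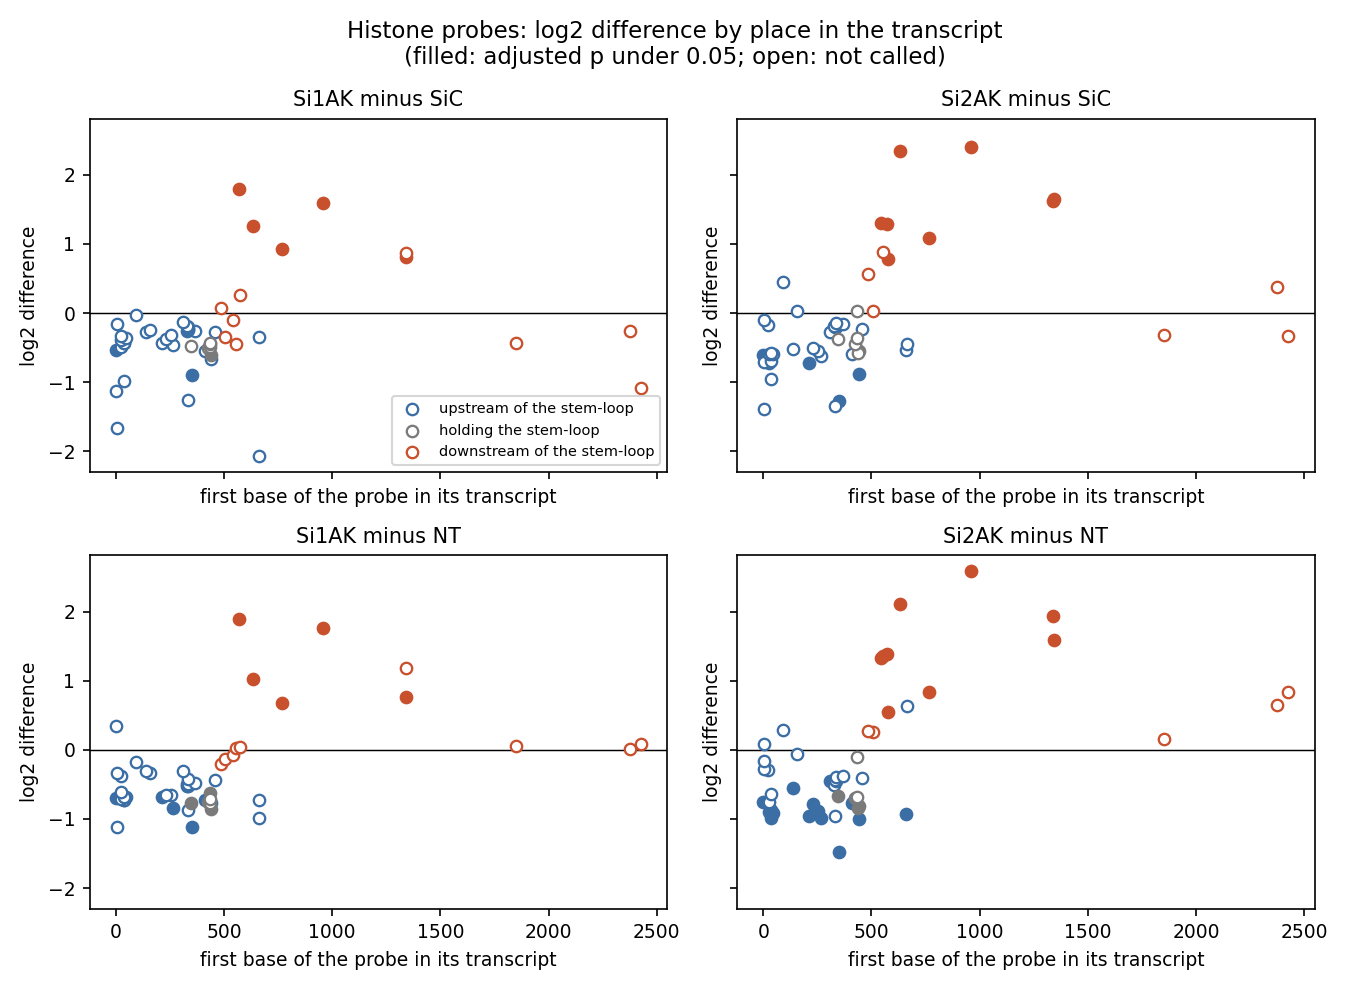
Log2 difference of the 52 kept histone probes (y axis) against the first base of the probe in its transcript (x axis, bases) in 4 comparisons. Colours give the place relative to the stem-loop, and filled points were called (adjusted p below 0.05). Every filled point above 0 is a downstream probe, and every filled point below 0 lies upstream of or on the stem-loop.

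Untransfected cells were the other baseline, and both comparisons with them share the NT arrays. In Si1AK against NT, 15 of 52 histone probes were called (28.8%), 5 higher and 10 lower, beside 5.84% of all kept probes (3.22% and 2.61%). The 5 that rose were the same 5 probes as against SiC. In Si2AK against NT, 28 of 52 were called (53.8%), 9 higher and 19 lower, beside 13.3% of all kept probes (6.72% and 6.59%). All 9 that rose were downstream, and Hist1h2bg joined the 8 called against SiC. The upstream medians were -0.66 for Si1AK and -0.60 for Si2AK, and the downstream medians 0.07 and 1.09, beside -0.10 and 0.03 over all kept probes. The Si1AK count was 29 without SiC replicate 1, 9 without Si1AK replicate 1 and 7 without Si1AK replicate 2. With the replicate number as a block it was 23, with 6 higher and 17 lower. The Si2AK count was 15 without Si2AK replicate 1.

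No histone probe was called between SiC and NT, where limma called 0.0% of all kept probes. At an unadjusted p under 0.05, 0 of 52 histone probes and 2090 of 30326 probes passed. The largest differences by class there had wide errors: 1.08 ± 1.03 for Hist1h1t, 1.46 ± 0.83 for Hist1h2al, 0.48 ± 0.51 for Hist2h2be and 0.54 ± 0.88 for the Hist2h4 probe at base 4, with -0.37 ± 0.18 for Hist2h3b. Without SiC replicate 1 (and Si2AK replicate 2) they were 0.13, 0.25, -0.31, -0.61 and -0.26 in the same order, so the sign turned for Hist2h2be and Hist2h4.

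Among linker histones, the probes of Hist1h1c (H1.2, now H1f2) and Hist1h1a (H1.1, now H1f1) went opposite ways. Each gene has 1 probe, downstream for Hist1h1c and upstream for Hist1h1a. Gene and place therefore cannot be told apart here. The Hist1h1c probe starts at base 1343 of its transcript (mm9 chr13:23832018-23832077, plus strand). Its level was 0.87, 1.03, 1.52 and 1.36 in NT, 0.66, 1.23 and 1.52 in SiC, 1.79, 2.00, 1.97 and 2.06 in Si1AK, and 2.89, 2.75 and 2.72 in Si2AK. The Si2AK arrays were all above the Si1AK arrays, which were all above both controls. Hist1h1c rose by 0.82 ± 0.20 in Si1AK and by 1.65 ± 0.21 in Si2AK against SiC (limma, adjusted p = 0.0434 and 0.000803). The Si1AK call was lost without any of 11 of the 14 arrays in turn (all but NT replicates 1 and 3 and SiC replicate 3), with an adjusted p of up to 0.123. Hist1h1c was also higher in Si2AK than in Si1AK, by 0.83 ± 0.20 (adjusted p = 0.0189), a call lost without any of 3 arrays in turn (adjusted p up to 0.0724).

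The Hist1h1a probe starts at base 352 (mm9 chr13:23855888-23855947, plus strand), upstream in its transcript. Its level was 1.05, 1.47, 1.04 and 1.27 in NT, 0.77, 1.11 and 1.09 in SiC, -0.20, -0.04, 0.18 and 0.44 in Si1AK, and -0.65, 0.04 and -0.22 in Si2AK. Every siRNA array against AK144841 was below every control array. Hist1h1a fell by 0.90 ± 0.19 in Si1AK and by 1.27 ± 0.20 in Si2AK against SiC (adjusted p = 0.0257 and 0.00283). The Si1AK call was lost without Si1AK replicate 1, 2 or 3 or SiC replicate 2 or 3. Hist1h1b (H1.5) fell by 0.89 ± 0.19 in Si2AK against SiC (adjusted p = 0.0111), and its Si1AK difference was -0.66 ± 0.17 (adjusted p = 0.0633). Hist1h1e (H1.4) was called only in Si2AK against NT, where it fell by 0.92 ± 0.22 (adjusted p = 0.0168; 0.0792 without Si2AK replicate 1). The testis H1 gene Hist1h1t had the largest H1 difference in Si1AK against SiC, -2.07 ± 1.03, and was not called (adjusted p = 0.312). Its SiC levels alone ranged from -3.17 to 0.33, the highest in replicate 1, and without both arrays of raised signal the difference was -1.12.

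**Figure D2:**
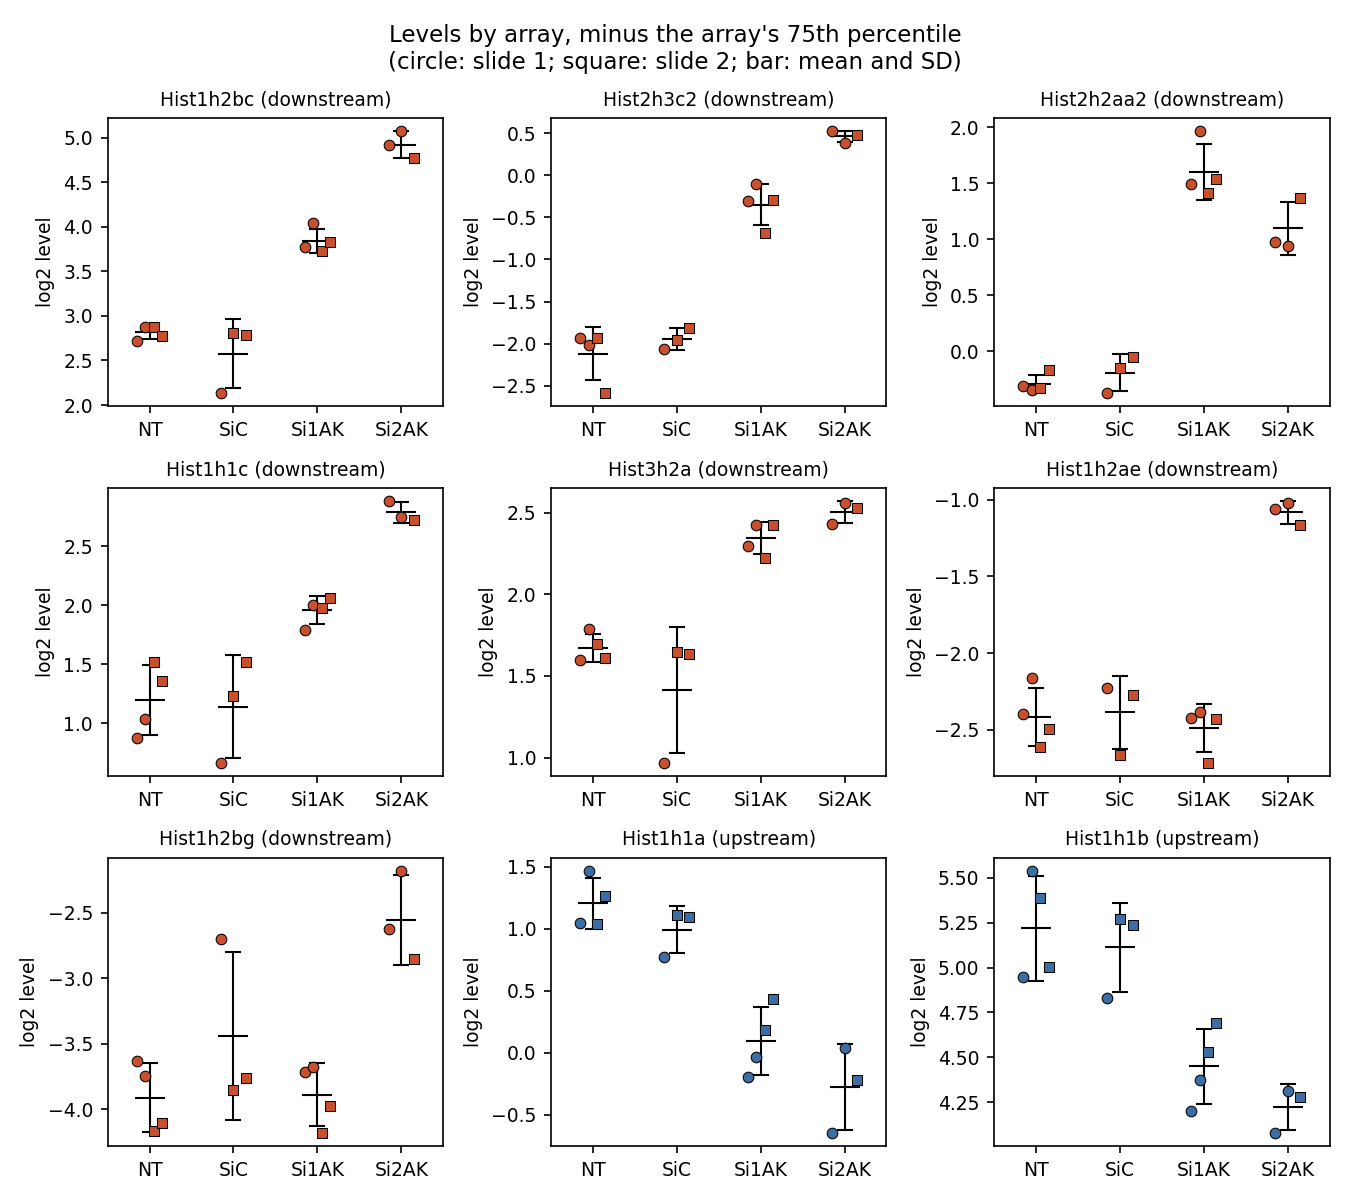
Levels (y axis, log2 processed signal minus the array's 75th percentile) of 9 histone probes in each array, by group, with mean and SD as bars and slide as symbol. Hist1h2bc ran from 4.77 to 5.08 in Si2AK against 2.13 to 2.88 in both controls, while Hist1h1a and Hist1h1b were lower in both AK144841 siRNA groups, and Hist1h2ae was higher in Si2AK alone.

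Among H2a genes, Hist2h2aa2 on chromosome 3 has a probe on each side of the stem-loop. The upstream probe (mm9 chr3:96043781-96043840, minus strand) is the end of the coding sequence, with the stop codon in capitals. It is shown with the corresponding probes of Hist1h2an and Hist1h2ak because they are nearly the same, so a probe here can bind transcripts of several genes.
Hist2h2aa2: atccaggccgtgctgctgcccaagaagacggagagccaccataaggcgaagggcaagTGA
Hist1h2an: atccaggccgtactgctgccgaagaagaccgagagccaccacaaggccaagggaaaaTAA
Hist1h2ak: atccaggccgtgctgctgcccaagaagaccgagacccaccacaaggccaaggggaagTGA
The Hist2h2aa2 and Hist1h2ak sequences agree at 91.7% of bases and the Hist2h2aa2 and Hist1h2an ones at 86.7%. Of the 32 kept upstream probes, 10 shared at least 80% of bases with another histone probe over 45 bases or more, and none of the 14 downstream probes did. The array listed over 1 RefSeq transcript for 14 of the 32 and for 2 of the 14, the downstream probes of Hist2h2aa2 and Hist1h2be. Values of upstream H2a and H4 probes are therefore uncertain as to the gene. The same holds for the upstream probes of Hist1h3d, Hist2h3b and Hist1h2bm, which are also among those listing over 1 transcript.

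At the upstream Hist2h2aa2 probe the level was 8.54, 8.85, 8.66 and 8.92 in NT, 8.28, 8.87 and 8.55 in SiC, 8.08, 8.11, 8.40 and 8.61 in Si1AK, and 8.14, 8.41 and 8.45 in Si2AK. The groups overlapped. The downstream probe (mm9 chr3:96043669-96043728), 112 bases further along, gave -0.31, -0.34, -0.33 and -0.17 in NT, -0.37, -0.15 and -0.05 in SiC, 1.5, 1.97, 1.41 and 1.54 in Si1AK, and 0.98, 0.94 and 1.37 in Si2AK. Every array with an siRNA against AK144841 was well above every control array at this probe. It rose by 1.80 ± 0.15 in Si1AK and 1.29 ± 0.16 in Si2AK against SiC (adjusted p = 0.000117 and 0.000674), while the upstream probe changed by -0.27 ± 0.17 and -0.23 ± 0.18 (adjusted p = 0.401 and 0.525). Of the probes called higher, it was the only one whose level was lower in Si2AK than in Si1AK, by -0.51 ± 0.15 (adjusted p = 0.0502, not called).

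Hist3h2a, alone among called histone genes in lying on chromosome 11, rose with both siRNAs at a probe starting at base 768. Its level was 1.60, 1.79, 1.69 and 1.61 in NT, 0.97, 1.64 and 1.63 in SiC, 2.30, 2.42, 2.23 and 2.43 in Si1AK, and 2.43, 2.56 and 2.53 in Si2AK. All arrays of the AK144841 siRNAs were above all control arrays, and SiC replicate 1 was lowest. Against SiC it rose by 0.93 ± 0.15 and 1.09 ± 0.16 (adjusted p = 0.00548 and 0.00146), and without both arrays of raised signal by 0.70 and 0.84. Hist1h2ak fell at its probe at base 1, by 0.54 ± 0.13 in Si1AK and by 0.61 ± 0.14 in Si2AK against SiC (adjusted p = 0.0406 and 0.0157). The Si1AK call was lost when any of 11 arrays was left out, all but NT replicate 2, Si1AK replicate 4 and SiC replicate 1. The Si2AK call was lost without Si2AK replicate 1 or SiC replicate 2. At its coding-end probe the same gene gave -0.23 ± 0.15 and -0.19 ± 0.17, not called. The upstream H2a probes Hist2h2ab and Hist1h2al had large differences with wide errors, -1.26 ± 0.42 and -1.13 ± 0.83 in Si1AK and -1.34 ± 0.45 and -1.38 ± 0.89 in Si2AK against SiC, none called, and so did the distal Hist1h2ac probe, -1.09 ± 0.91 and -0.34 ± 0.98. Without both arrays of raised signal the Hist1h2al differences were 0.09 and -0.69 and the Hist1h2ac ones -0.16 and 0.26. Hist1h2al was well above background on 11 arrays and Hist1h2ac on 8. The current symbol matched to Hist1h2al is H2af-ps2, that of a pseudogene. Its probe (mm9 chr13:51299277-51299336) lies away from the other histone probes of that chromosome. Against NT, Hist1h2ab and Hist1h2aa also fell in Si2AK, by 0.84 ± 0.22 and by 0.56 ± 0.16 (adjusted p = 0.0261 and 0.0367). The first call was lost without any of 4 arrays in turn and the second without any of 7 (adjusted p up to 0.118 and 0.158).

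Hist1h2ae and Hist1h2bg are divergent neighbours, an H2a and an H2b gene whose probes lie 1274 bases apart on opposite strands of chromosome 13, and they moved with 1 siRNA. The Hist1h2ae probe (mm9 chr13:23662489-23662548) gave -2.40, -2.16, -2.61 and -2.49 in NT, -2.22, -2.66 and -2.27 in SiC, -2.42, -2.38, -2.72 and -2.43 in Si1AK, and -1.06, -1.02 and -1.17 in Si2AK. Only the Si2AK arrays were apart. It rose by 1.30 ± 0.15 in Si2AK against SiC (adjusted p = 0.000422) and differed by -0.10 ± 0.14 in Si1AK (adjusted p = 0.676). The direct difference between the siRNAs was 1.41 ± 0.14 (adjusted p = 9.9e-05). With quantile normalization it was 1.22, and the Si2AK difference from NT was 1.31. Neither was called there (limma, adjusted p = 0.163 and 0.112).

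The Hist1h2bg probe (mm9 chr13:23663823-23663882) gave -3.63, -3.74, -4.16 and -4.11 in NT, -2.71, -3.85 and -3.76 in SiC, -3.71, -3.68, -4.18 and -3.98 in Si1AK, and -2.63, -2.18 and -2.86 in Si2AK. SiC replicate 1 fell among the Si2AK arrays. Hist1h2bg rose by 1.36 ± 0.27 in Si2AK against NT and by 1.33 ± 0.27 against Si1AK (adjusted p = 0.00708 and 0.00909), and by 0.89 ± 0.29 against SiC, not called (adjusted p = 0.0805). With normexp background correction the difference from NT was 0.56 (adjusted p = 0.0309), and in the authors' value table that from Si1AK was 0.53 (adjusted p = 0.143). With quantile normalization neither was called (adjusted p = 0.118 and 0.322). Both genes share their upstream region. The 250 bases before the Hist1h2bg start (RefSeq, GRCm38.p6, chr13:23571150-23571399, plus strand) are shown because they hold the start regions of both genes, with CCAAT, its complement ATTGG, and TATAAA in capitals.
Hist1h2bg: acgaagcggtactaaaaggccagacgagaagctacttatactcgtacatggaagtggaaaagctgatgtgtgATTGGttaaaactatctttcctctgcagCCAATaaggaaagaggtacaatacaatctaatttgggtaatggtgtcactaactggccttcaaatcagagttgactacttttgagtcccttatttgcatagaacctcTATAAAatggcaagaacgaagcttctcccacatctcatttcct
Of the 49 genes, 42 matched the promoter table. CCAAT on either strand was present in 35 of the 42 (83.3%) and in 34.5% of 27025 promoters of the same length. TATAAA on either strand was present in 22 (52.4%) and in 13.0% of all, and TTTGCAT, part of the octamer of H2b promoters, in 13 (31.0%) and in 4.06% of all. The promoters of Hist1h1a, whose upstream probe fell, and Hist1h1c, whose downstream probe rose, are shown for comparison. Each holds 1 CCAAT, and TATAAA is in the first alone.
Hist1h1a: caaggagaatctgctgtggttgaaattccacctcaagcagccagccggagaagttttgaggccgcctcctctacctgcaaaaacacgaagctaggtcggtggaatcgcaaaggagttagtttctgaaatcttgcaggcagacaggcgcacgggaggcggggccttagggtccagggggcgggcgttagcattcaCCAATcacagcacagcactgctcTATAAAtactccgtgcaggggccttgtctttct
Hist1h1c: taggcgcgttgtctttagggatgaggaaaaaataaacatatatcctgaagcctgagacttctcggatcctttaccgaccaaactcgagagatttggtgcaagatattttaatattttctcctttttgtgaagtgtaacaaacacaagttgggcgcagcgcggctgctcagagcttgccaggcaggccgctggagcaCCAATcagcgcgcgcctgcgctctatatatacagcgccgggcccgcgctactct
These are chr13:23763418-23763667 and chr13:23738557-23738806 on the plus strand of the same build. A match describes letters and not a bound site, and a missing match says only that the letters are not in this window.

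Among H2b genes, Hist1h2bc had the largest difference among the H2b probes called against either control. Its probe (mm9 chr13:23784254-23784313, plus strand) starts at base 633. The level was 2.72, 2.88, 2.88 and 2.78 in NT, 2.13, 2.81 and 2.79 in SiC, 3.77, 4.04, 3.73 and 3.83 in Si1AK, and 4.92, 5.08 and 4.77 in Si2AK. The Si2AK arrays lay above the Si1AK arrays and these above both controls, with no overlap. Hist1h2bc rose by 1.26 ± 0.16 in Si1AK and by 2.34 ± 0.17 in Si2AK against SiC, 2.40-fold and 5.07-fold (adjusted p = 0.0015 and 3.61e-05). The siRNAs differed by 1.08 ± 0.16 (adjusted p = 0.00109). Within slides the Si2AK difference was 2.86 on slide 1 and 1.97 on slide 2.

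Hist2h2bb has a probe that ends on the stem-loop and another 8698 bases further along the genome (mm9 chr3:96082754-96082813, plus strand), at base 1341 of the transcript. At the distal probe, which holds the AATAAA shown above, the level was -2.85, -3.54, -3.80 and -3.98 in NT, -2.09, -3.84 and -3.74 in SiC, -2.01, -2.19, -2.79 and -2.44 in Si1AK, and -1.53, -1.49 and -1.78 in Si2AK. SiC replicate 1 lay within the range of the Si1AK arrays. It rose by 1.62 ± 0.43 in Si2AK against SiC (adjusted p = 0.0316) and its Si1AK difference was 0.87 ± 0.40 (adjusted p = 0.275), or 1.44 without both arrays of raised signal. The Si2AK call was lost without any single Si2AK array or SiC replicate 2 or 3, and the difference was 0.57 within slide 1 and 2.01 within slide 2. At the stem-loop probe the differences were -0.43 ± 0.22 and -0.35 ± 0.24, not called. Upstream, Hist1h2bm differed by 0.44 ± 0.15 and Hist1h2ba by 0.02 ± 0.12 in Si2AK against SiC, not called, and these were the only positive upstream differences there. The downstream probes of Hist1h2bp, Hist2h2be and Hist1h2be were well above background on 10, 11 and 13 of the 14 arrays and were not called, with differences from -0.43 to 0.38 against SiC.

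**Figure D3:**
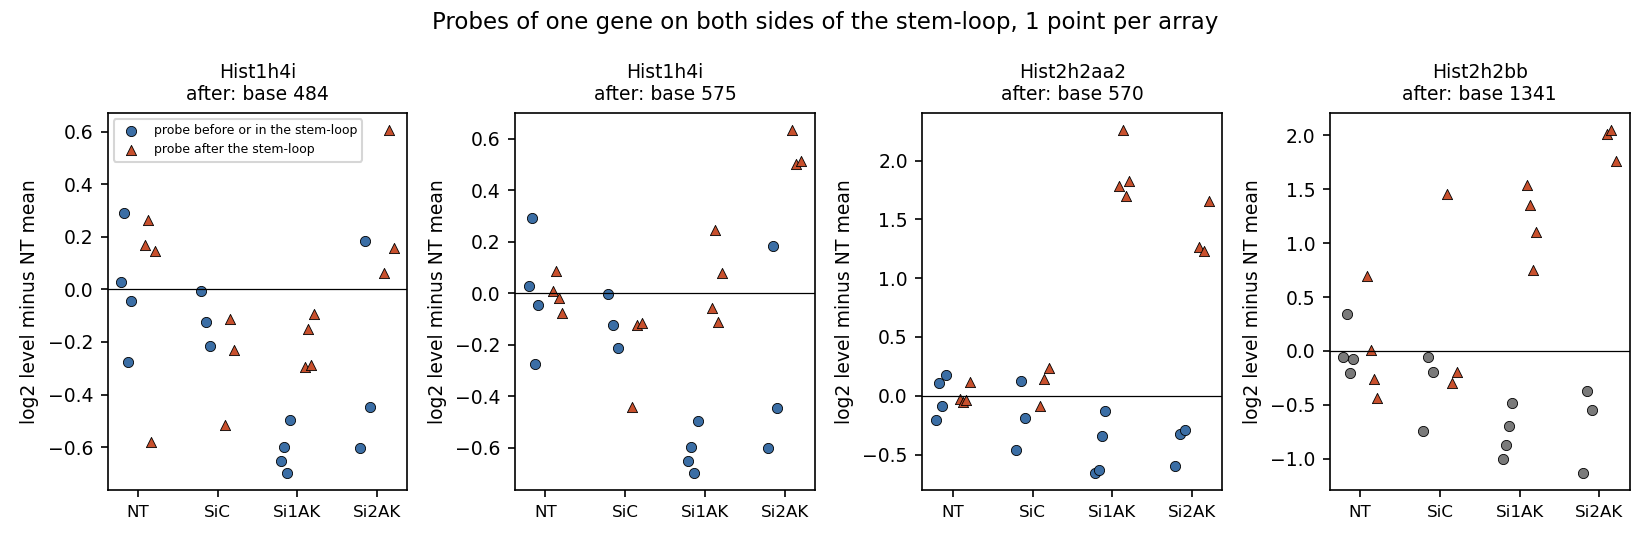
Levels minus the NT mean (y axis, log2) in each array for the 3 genes with kept probes on both sides of the stem-loop. Circles are the probe before or on it (grey where it holds it), and triangles are the probe after it. For Hist2h2aa2 the triangles of both AK144841 siRNAs lie above 1 and those of NT and SiC near 0, while the circles overlap between groups.

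Hist1h4i is the third gene with kept probes on both sides. Against SiC, its upstream probe differed by -0.50 ± 0.18 in Si1AK and -0.17 ± 0.19 in Si2AK, and its most distal probe, at base 575, by 0.27 ± 0.11 and 0.78 ± 0.12. Only the last was called (adjusted p = 0.00179). The probe between them, at base 484, gave 0.08 ± 0.20 and 0.56 ± 0.22, not called. It holds the letters ATTAAA, and its likeness to sequences outside histone genes was not examined. The downstream level minus the upstream level of Hist2h2aa2 was 2.06 larger in Si1AK and 1.52 larger in Si2AK than in SiC. For Hist2h2bb, whose first probe is on the stem-loop, this gap was 1.30 and 1.98 larger. For Hist1h4i it was 0.76 and 0.95 larger at base 575, and 0.58 and 0.74 larger at base 484. Only for Hist2h2bb in Si1AK did the arrays overlap those of SiC. These gaps are given as a description because the division was chosen after the values were seen.

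Among H3 genes, Hist2h3c2 had the largest rise of the kept histone probes in Si2AK. The probe starts at base 958 (mm9 chr3:96042034-96042093, minus strand), 1575 bases from the downstream probe of Hist2h2aa2. Its level was -1.94, -2.02, -1.93 and -2.59 in NT, -2.07, -1.95 and -1.81 in SiC, -0.31, -0.11, -0.69 and -0.30 in Si1AK, and 0.52, 0.39 and 0.48 in Si2AK. The 3 levels did not overlap. Hist2h3c2 rose by 1.59 ± 0.17 in Si1AK and 2.40 ± 0.18 in Si2AK against SiC, 3.02-fold and 5.30-fold (adjusted p = 0.000541 and 4.68e-05). It differed by 0.81 ± 0.17 between the siRNAs (adjusted p = 0.0103). That call was lost with quantile normalization and in the authors' value table (limma, adjusted p = 0.422 and 0.149). Within slides the Si2AK difference was 2.52 and 2.36.

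The other 7 H3 probes lie upstream of or on the stem-loop, and none rose. Hist1h3a, at the stem-loop, was at -1.21, -0.89, -1.28 and -1.36 in NT, -1.30, -1.45 and -1.56 in SiC, -2.15, -2.05, -2.13 and -1.84 in Si1AK, and -2.12, -1.88 and -1.97 in Si2AK. All arrays of the AK144841 siRNAs were below all control arrays. Hist1h3a fell by 0.61 ± 0.13 and by 0.55 ± 0.13 against SiC (adjusted p = 0.0223 and 0.0222). These calls were lost without SiC replicate 1 or 2, and for Si1AK also without Si1AK replicate 1, 2 or 3, for Si2AK without Si2AK replicate 1 or 3. In the authors' value table the differences were -0.06 and -0.18 (limma, adjusted p = 0.87 and 0.692), and with quantile normalization -0.12 and -0.27 (adjusted p = 0.767 and 0.604). Within slide 1 the differences were -0.80 and -0.70 and within slide 2 they were -0.48 and -0.46. Against NT, Hist2h3b, Hist1h3f and Hist1h3i also fell with both siRNAs, Hist2h3b by 0.84 ± 0.17 and by 0.99 ± 0.18 (adjusted p = 0.0141 and 0.00448). The Hist1h3f calls were lost without any of 7 arrays in Si1AK and any of 4 in Si2AK (adjusted p up to 0.111 and 0.103). Hist1h3g fell against NT in Si1AK, by 0.63 ± 0.15 (adjusted p = 0.0299), a call lost without any of 7 arrays in turn (adjusted p up to 0.0901), and its Si2AK difference was -0.10 ± 0.16; the siRNAs differed there by 0.53 ± 0.16 (adjusted p = 0.0606).

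Among H4 genes the calls were mainly against NT. In Si2AK against NT, 8 of 13 H4 probes fell, beside 6.59% of all kept probes called lower. The 8 are not separate observations, since those of Hist1h4c, Hist1h4d, Hist1h4j and Hist1h4k (base 37) share over 80% of their bases. They were led by Hist1h4c at -0.99 ± 0.24, Hist4h4 at -0.96 ± 0.19 and Hist1h4d at -0.91 ± 0.23 (adjusted p = 0.0203, 0.00675 and 0.0205), and the median over the 13 was -0.78. In Si1AK against NT 2 fell (2.61% of all kept probes were called lower), Hist1h4m by 0.77 ± 0.16 and Hist4h4 by 0.68 ± 0.18 (adjusted p = 0.0138 and 0.049). This Hist4h4 call was lost without any of 10 of the 14 arrays in turn (adjusted p up to 0.132) and with the replicate block (adjusted p = 0.0551). The Hist4h4 probe gave 5.13, 5.43, 4.77 and 4.80 in NT, 4.44, 5.08 and 4.85 in SiC, 4.30, 4.30, 4.28 and 4.54 in Si1AK, and 3.77, 4.25 and 4.18 in Si2AK. SiC replicate 1 overlapped the Si1AK arrays. Hist4h4 was the only H4 probe to fall against SiC, by 0.72 ± 0.21 in Si2AK (adjusted p = 0.046), and that call was lost without any of 10 arrays in turn, among them all Si2AK arrays and SiC replicates 2 and 3. Without Si2AK replicate 1 the Hist4h4 fall against NT stayed called, and those of Hist1h4c and Hist1h4d did not (adjusted p = 0.0931 and 0.0943). The Hist1h4k call at base 253 was also lost then (adjusted p = 0.0539). At base 37 the Hist1h4k call was lost without any of 11 arrays in turn (adjusted p up to 0.192). Those of Hist1h4m and Hist1h4j were lost without any of 5 and any of 4 arrays (adjusted p up to 0.103 and 0.117). The Hist2h4 probe at base 4 had the largest H4 difference with Si1AK, -1.66 ± 0.88 against SiC and -1.12 ± 0.81 against NT, not called. The difference from SiC was -0.50 without both arrays of raised signal. At its other probe, at base 231, Hist2h4 fell by 0.78 ± 0.20 in Si2AK against NT, a call lost without any of 4 arrays in turn (adjusted p up to 0.114).

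**Figure D4:**
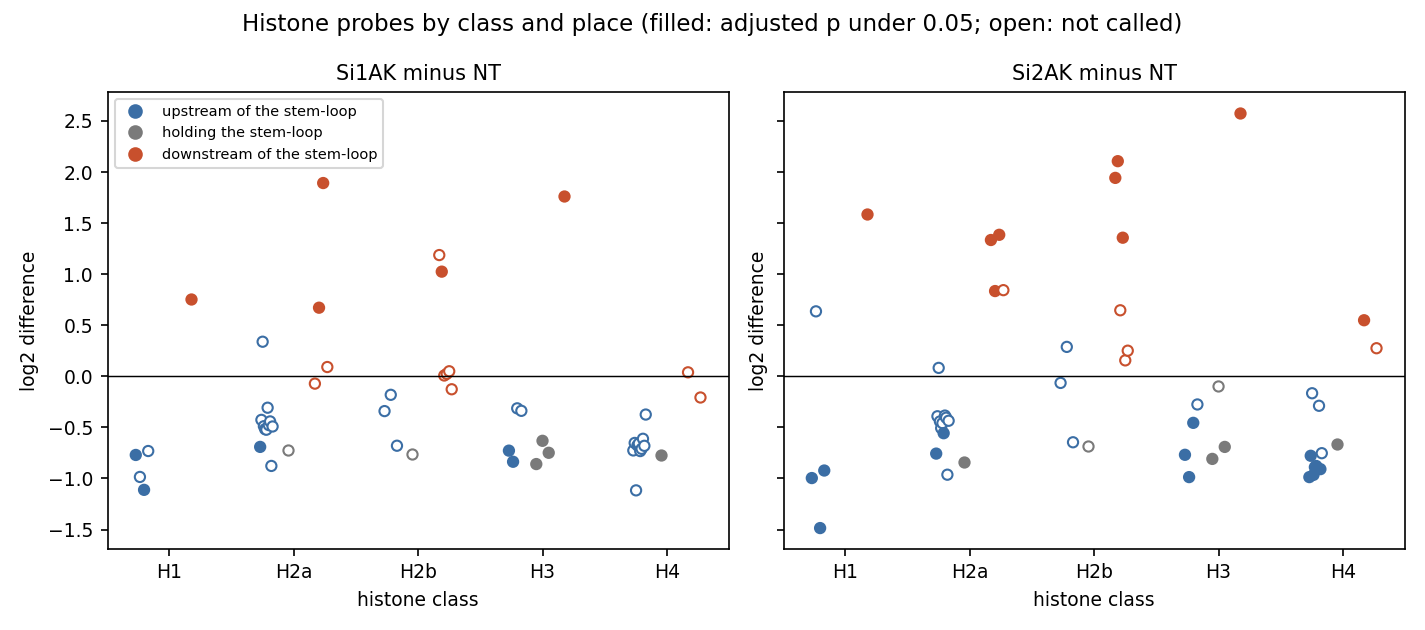
Log2 difference from NT (y axis) of the 52 kept histone probes by histone class (x axis) and place relative to the stem-loop (colour), with filled points for called probes. In each class the highest point in Si2AK against NT is a downstream probe, and all downstream probes lie between 0.16 and 2.58 there. The Hist1h2ac probe was kept through Si2AK alone, and those of Hist1h2bp and Hist2h2be through both AK144841 siRNA groups but neither control. Hist1h2bp was at -5.38, -3.34 and -5.66 in Si2AK (NT mean -5.04). Hist2h2be was at -5.52, -4.17 and -5.04 in Si2AK (NT mean -5.06). In both, the highest value is that of Si2AK replicate 2, an array of raised signal.

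Compared directly, 6 of 52 histone probes differed between the siRNAs (11.5%), beside 10.6% of all kept probes, a share near the background. All 6 were downstream and higher in Si2AK: Hist1h2ae, Hist1h2bg, Hist1h2bc, Hist1h1c, Hist2h3c2 and the distal Hist1h4i probe. Of all kept probes, 5.39% were higher and 5.22% lower. The downstream median was 0.70, the upstream median -0.08 and the median over all probes 0.10. Without SiC replicate 1, 10 were called, 9 of them higher. The largest differences of H1 and H4 were 1.62 ± 1.03 for Hist1h1t and 0.95 ± 0.88 for the Hist2h4 probe at base 4, not called, both with Si2AK replicate 2 as the highest Si2AK array, and without both arrays of raised signal they were 0.29 and 0.09.

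Array by array, the upstream median minus the NT mean lay between -0.22 and 0.29 in NT, at -0.43, 0.05 and -0.23 in SiC, between -0.71 and -0.40 in Si1AK, and at -0.83, -0.38 and -0.75 in Si2AK. The highest Si2AK value was that of replicate 2 and the lowest SiC value that of replicate 1, and these overlapped. The downstream median lay between -0.05 and 0.08 in NT, at 0.12, -0.02 and -0.03 in SiC, between -0.08 and 0.34 in Si1AK, and at 1.05, 1.46 and 0.96 in Si2AK. Si2AK was above all other arrays, and Si1AK replicate 3 was below all NT and SiC arrays while the other Si1AK arrays were above them. In bulk samples such as these, fewer cells in S phase and less histone RNA per cell cannot be told apart. The labels name the amplification kit but not the primer for cDNA, so how well transcripts with and without a poly(A) tail were labelled is not given in the sources used here.

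**Figure D5:**
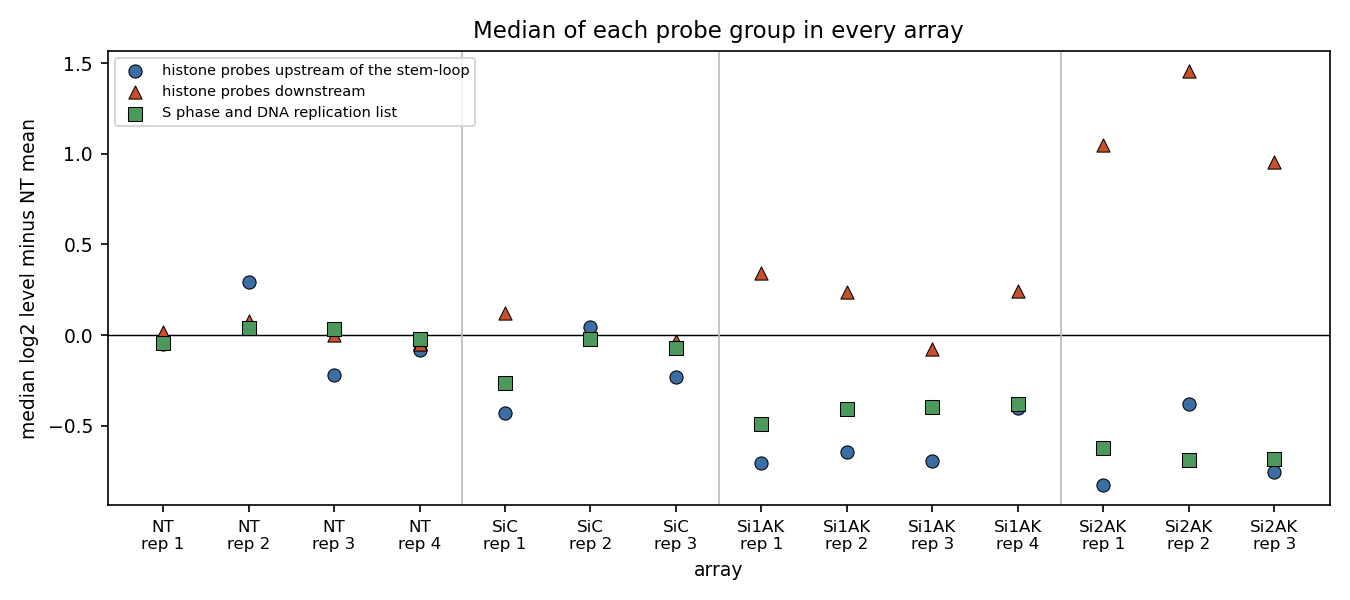
Median level minus the NT mean (y axis, log2) in each array (x axis) for upstream histone probes, downstream histone probes and the list of S phase and DNA replication genes. S phase genes are at -0.69 to -0.38 in the Si1AK and Si2AK arrays, -0.26 to -0.02 in SiC and -0.04 to 0.04 in NT, upstream probes overlap between SiC and these siRNAs, and downstream probes are at 0.96 to 1.46 in Si2AK.

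Few of the genes that process histone mRNA were called against SiC. Slbp binds the stem-loop and is itself made for S phase. Its level was 1.57, 1.62, 1.77 and 1.28 in NT, 1.41, 1.63 and 1.65 in SiC, 1.06, 1.13, 1.38 and 1.20 in Si1AK, and 0.36, 0.18 and 0.52 in Si2AK. The Si2AK arrays were below all others, and Si1AK overlapped NT. Slbp fell by 1.22 ± 0.14 in Si2AK against SiC (adjusted p = 0.000498), and its Si1AK difference was -0.38 ± 0.13 (adjusted p = 0.151). The direct difference was -0.84 ± 0.13 (adjusted p = 0.00178). Of the 20 measured genes of 21 listed for histone pre-mRNA processing and decay, none was called in Si1AK against SiC, and 1 rose (Hinfp, an activator of H4 transcription, 0.37 ± 0.10) and 2 fell in Si2AK (Slbp and Srrt, -0.40 ± 0.10). In Si2AK against SiC 6.73% of all kept probes were called higher and 4.05% lower. The median over the list against SiC was -0.10 and -0.06, close to -0.10 and -0.05 over all probes. The U7 RNP proteins Lsm10 and Lsm11 differed by 0.35 ± 0.11 and 0.12 ± 0.10 in Si1AK and by 0.01 ± 0.12 and 0.04 ± 0.11 in Si2AK, and Casp8ap2 by -0.34 ± 0.28 and -0.60 ± 0.30, none called. Npat, the activator of histone transcription, was not kept. Against NT, 1 gene of the list fell in Si1AK, and 1 rose and 4 fell in Si2AK. Of all kept probes, 2.61% were called lower in Si1AK, and 6.72% higher and 6.59% lower in Si2AK. The list medians against NT were -0.14 and -0.20, beside -0.10 and 0.03 over all kept probes.

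Among genes of S phase and DNA replication the calls against SiC were all lower. Of 35 measured (of 36), 5 fell in Si1AK and 25 in Si2AK against SiC and none rose, beside 1.21% and 4.05% of all kept probes called lower. Their medians were -0.28 and -0.53, beside -0.10 and -0.05 over all kept probes. The helicase subunits Mcm7 and Mcm5 and the GINS subunit Gins1 fell by 0.49 ± 0.10, by 0.47 ± 0.11 and by 0.54 ± 0.09 in Si1AK. The polymerase subunit Pola1 and the replication factor Mcm10 fell by 1.08 ± 0.23 and by 0.91 ± 0.12 in Si2AK. Of 20 histone chaperones and assembly factors none was called in Si1AK against SiC. In Si2AK against SiC 5 fell, beside the 4.05% of all probes, among them the chromatin assembly subunits Chaf1b (-0.69 ± 0.15) and Chaf1a (-0.61 ± 0.12) and the linker histone chaperone Nasp (-0.60 ± 0.11). Against NT 5 fell in Si1AK and 10 in Si2AK, beside 2.61% and 6.59% of all probes, and none rose. Of 10 measured replication-independent variants (of 12), whose mRNAs are mostly polyadenylated, 1 fell in Si2AK against SiC, H2afv by 0.44 ± 0.13, and none was called in Si1AK. Medians were -0.12 and -0.09. Against NT the variants that fell were H2afx, Cenpa and H2afz in Si1AK and H2afv, Cenpa and H2afy2 in Si2AK. Of all kept probes, 2.61% and 6.59% were called lower there, and 4.05% in Si2AK against SiC.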

How the data were processed

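Agilent Feature Extraction 10.7.3.1 made the spot values and mm9 the probe positions, per the file headers. Each deposited intensity had background and spatial trend subtracted within its array, per the file headers, with no scaling between arrays. The deposited 0 or 1 marks (a unit other than intensity) flag spots well above background, uneven or saturated. The value table deposited by the authors is on a log2 scale, judged from its values, with a median of 6.51 on each array. The submitters' processing notes name limma, and the background step is not given in the sources used here. Here, 59305 non-control spots per array gave 55681 probes. Log2 processed signal minus the 75th percentile was fitted over 14 arrays and 4 groups with limma 3.58.1 in R 4.3.3 (lmFit, eBayes, 10 residual degrees of freedom), tested first on simulated data, and adjusted over 30326 probes. Each histone probe stood for itself, and no member spot was flagged or saturated. The text could name any histone probe. It names per comparison the called ones (at most 12, by size), the largest difference per class, genes whose probes disagree and, from other lists, up to 4 called genes. A gene of another list was read through its brightest probe on average. Members and lists were chosen with earlier results of these data known. Of 57 probes, 52 were named through RefSeq accessions, none of which contradicted the array's name. Precision is limited by the number of arrays. Alternatives covered normalization, background, filters, slides, arrays and blocks. The replicate numbers met the criterion for pairing (every r over 0.1, across probes, which are not independent) only between NT and Si1AK, at 0.23, 0.12, 0.16 and 0.14. Those arrays also share slides, and differently numbered ones on a shared slide were at 0.08 to 0.29, so number and slide cannot be told apart there. Some listed genes are not reported here.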

Additional observations from a re-analysis of the deposited data

Results flagged for a closer look

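Of 110 sets of 4 arrays examined (52 kept probes and 3 medians, in NT and Si1AK), 12 held an array far from the other 3, where chance alone gives about 5% of sets. Si1AK replicate 4 was the high array for 6 upstream probes: Hist1h2ah at 9.07 (others 8.72 to 8.75), Hist1h4c at 1.33, Hist1h4d at 5.99, Hist1h4j at 2.28, Hist1h4k at 7.03 (base 253) and Hist4h4 at 4.54. Some of these H4 probes share over 80% of their bases with each other. NT replicate 2 was high for Hist1h2aa at -0.54 and for Hist1h2ak at 7.09 (base 1). Single low arrays were Si1AK replicate 3 for Hist1h2ae at -2.72, NT replicate 4 for Hist2h3c2 at -2.59 and NT replicate 3 for Hist1h4i at -0.10 (base 484). Hist1h2bp was at -5.11 in Si1AK replicate 2, with the other 3 arrays at -5.19.

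The response to the siRNAs differed by limma's direct test for 6 downstream probes, each higher in Si2AK than in Si1AK in all 3 Si2AK arrays: Hist1h2ae by 1.41, Hist1h2bg by 1.33, Hist1h2bc by 1.08, Hist1h1c by 0.83, Hist2h3c2 by 0.81 and Hist1h4i (base 575) by 0.51. They make up 11.5% of the 52 kept histone probes, beside 10.6% of all kept probes, a share near the background. The calls of Hist1h2ae, Hist1h2bg and Hist2h3c2 were lost with quantile normalization.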

How the results depend on the processing

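Over 28 alternatives, none of the called differences changed sign, and 1593 of 1949 single values kept their call. The split by place was chosen after the data were seen. The median of downstream probes was positive in all 28 for Si2AK against either control, and that of upstream probes negative in all 28 for both siRNAs against either control. For Si1AK the downstream median was positive in 26 of 28 against SiC, with -0.10 as the lowest (1 probe per gene), and in 27 of 28 against NT, with -0.05 as the lowest (normexp).

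Counts of called histone probes in Si1AK against SiC (8) were 4 with no filter on dim probes, 0 on slide 1 alone, 0 on slide 2 alone, 2 with other groups left out of the fit and 36 with array weights, and 4 to 8 with an array left out. In Si2AK against SiC (13) they were 20 with quantile normalization, 25 in the authors' value table, 0 on slide 1, 1 on slide 2, 0 with other groups left out and 32 with array weights, and 9 to 17 with an array left out. In Si1AK against NT (15) they were 6 with no filter, 0 on slide 1, 0 on slide 2, 24 with other groups left out, 33 with array weights and 30 without both arrays of raised signal, and 7 to 29 with an array left out. In Si2AK against NT (28) they were 16 with no filter, 3 on slide 1, 4 on slide 2 and 17 with other groups left out, and 15 to 32 with an array left out. In Si2AK against Si1AK (6) they were 1 on slide 1 and 1 on slide 2, and 5 to 10 with an array left out. Between SiC and NT the count was 0 throughout. The cause of these shifts was not tested, except that a slide alone holds 7 arrays. For no alternative, here or elsewhere in the text, is the share of all kept probes called given. These counts therefore have no background beside them and are not read as a result about histone genes.

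Over all groups, same-numbered arrays correlated with a median r of 0.16 (range -0.69 to 0.72 over 19 pairs) and other arrays with -0.04. With the replicate block the counts were 7, 14, 23, 28 and 6 for Si1AK and Si2AK against SiC, Si1AK and Si2AK against NT, and Si2AK against Si1AK.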
